A study of Mus musculus with 6 samples.

Results

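The conjugation enzymes described here are the UDP-glucuronosyltransferases (Ugt), glutathione transferases (Gst) and sulfotransferases (Sult), the main enzymes of phase II drug metabolism. Members were all genes of the deposited table whose symbol begins with Ugt or Sult and a digit, or with Gst, a letter of a soluble class (a, k, m, o, p, s, t or z) and a digit. Of 72 matching symbols, 7 that carry the pseudogene suffix -ps and a number were left out, and 65 genes remained of 55291 listed: 22 Ugt, 22 Gst and 21 Sult genes. The RNA was polyadenylated RNA of 6 mouse tumours of the liver, with 1 bulk library per tumour. All tumours were RIL-175/PD-1R tumours, RIL-175 being a mouse liver cancer cell line. What PD-1R stands for is not given in the sources used here. The 3 Cre_PD1 tumours came from LysM-Cre mice, the Cre-bearing controls. The 3 MKO_PD1 tumours came from Trem2-MKO mice, in which Trem2 is deleted in myeloid cells. LysM-Cre is active in macrophages, monocytes and neutrophils, so the deletion does not address hepatocytes, in which most conjugation enzymes are made. Both genotypes had been treated with anti-PD-1, which blocks a checkpoint receptor on T lymphocytes. The design gives 3 mice per genotype. Age and sex of the mice are not given in the sources used here, and no tumour without anti-PD-1 was included.

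Phase II enzymes couple a water-soluble group to a drug, hormone or waste product so that it can leave the cell in bile or urine. Ugt enzymes sit in the endoplasmic reticulum and transfer glucuronic acid, for example to bilirubin, steroids and phenols. Gst enzymes are mostly cytosolic and add glutathione to reactive compounds such as lipid aldehydes, and Sult enzymes add sulfate to phenols, steroids and bile acids. The healthy liver is the main site of all 3 families.

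Reads recovered per library ranged from 26750054 to 34268075. Levels are given in TPM, the length-normalised read density scaled so that the genes of a library sum to 1000000, and are listed in the order of replicates 1, 2 and 3. Trem2, the targeted gene, was at 10.5, 16.5 and 14.9 TPM in Cre_PD1 and 7.68, 17.97 and 6.81 TPM in MKO_PD1, a log2 difference of -0.44 (limma adjusted p = 0.432). Reads over the whole gene in bulk tissue do not measure a deletion in myeloid cells. The libraries differed in tissue content. Of all TPM, the 19 hepatocyte marker genes measured took 1.32, 2.52 and 2.69% in Cre_PD1 and 13.6, 3.31 and 9.66% in MKO_PD1. The 8 bile duct and progenitor markers took 1.56, 1.27 and 1.30% in Cre_PD1 and 0.130, 0.662 and 0.407% in MKO_PD1, and 8 tumour epithelial markers, of which Igf2 was at 0 in every library, took 0.980, 0.609 and 0.563% in Cre_PD1 and 0.127, 0.368 and 0.284% in MKO_PD1. All 3 sums separated the groups, the first upwards and the other two downwards in MKO_PD1. MKO_PD1 replicate 2 lay nearest to the Cre_PD1 range in each. Kidney markers, of another organ rich in these enzymes, stayed under 1 TPM for all 4 genes. Neutrophil markers (5 genes) summed to 117, 185 and 81.1 TPM in Cre_PD1 and 229.8, 909 and 365 TPM in MKO_PD1. Endothelial markers (5 genes) summed to 71.2, 74.7 and 73.3 TPM in Cre_PD1 and 122, 119 and 138 TPM in MKO_PD1, also separate and higher. Kupffer cell markers (5 genes) overlapped, at 200.3, 494 and 439 TPM in Cre_PD1 and 2163, 376 and 1369.9 TPM in MKO_PD1. The macrophage, T cell, and fibroblast and stellate sums also overlapped and were each highest in MKO_PD1 replicate 2. Macrophage markers summed to 2654, 3517 and 3575 TPM in Cre_PD1 and 3312, 6801 and 3550 TPM in MKO_PD1. T cell markers summed to 38.6, 50.7 and 67.1 TPM and 22.5, 163 and 36.8 TPM. Fibroblast and stellate markers summed to 675, 1069 and 684 TPM and 192, 2022 and 574 TPM. The sum of 4 intestine markers was separate and lower, at 136, 62.02 and 74.8 TPM in Cre_PD1 and 56.1, 51.6 and 40.6 TPM in MKO_PD1. Of these, Vil1 and Cdx2 were separate and lower, and Muc2 overlapped. Fabp2 overlapped and went the other way, at 6.32, 14.3 and 26.6 TPM in Cre_PD1 and 52.7, 20.1 and 28.5 TPM in MKO_PD1. The part of these cell types in the differences below was not tested. In bulk RNA, fewer cells of a type and less RNA per cell cannot be told apart.

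Most conjugation enzyme genes had higher levels in the MKO_PD1 tumours, with a small set of members going the other way. Of the 65 genes, 47 reached at least 1 TPM in at least 3 libraries and were tested (16 Ugt, 21 Gst and 10 Sult). Of these, 38 had a positive log2 difference (MKO_PD1 minus Cre_PD1) and 9 a negative one, while 27.1% of all 16506 genes tested were above 0 and 72.9% below. None passed the adjusted threshold of 0.05 in limma (adjusted p from 0.168 to 0.904), and 0 passed in limma's voom on recovered reads. Of all genes tested, 0.0121% passed. At an unadjusted p under 0.05 there were 21 members higher and 5 lower, against 8.47% and 19.5% of all genes. With voom these counts were 22 and 5, against 17.3% and 12.4%. The groups were separate, meaning that the lowest value of one lay above the highest of the other, for 14 members higher in MKO_PD1 and 6 lower, where 10.1% and 28.9% of all genes were so. The median log2 difference was 1.21 for Ugt, 0.65 for Gst and 1.09 for Sult genes, beside -0.42 for all genes. Scaling by median-of-ratios factors moved the median of all genes to -0.02 and those of the families to 1.67, 1.04 and 1.40. The split of members then became 40 above and 7 below 0, beside 48.6% of all genes above 0 and 51.4% below. Ugt2b38 and Sult6b1 were the members that turned from negative to positive.

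The count of members past the adjusted threshold depended on MKO_PD1 replicate 2. Without that library, 26 of 46 members tested passed in limma, 21 higher and 5 lower, beside 7.88% and 38.0% of the 15940 genes tested in that fit. Leaving out any of the other libraries gave 0 members past the adjusted threshold. The counts at an unadjusted p under 0.05 (21 higher and 5 lower with all libraries) were 8 and 1 without Cre_PD1 replicate 1, 13 and 4 without MKO_PD1 replicate 1, and 11 and 4 without MKO_PD1 replicate 3. They were 27 and 7 without MKO_PD1 replicate 2. The shares of all genes at that level were not worked out for these fits. Changes in these counts can therefore not be assigned to the members apart from the other genes. Leaving out MKO_PD1 replicates 1 and 3 together keeps 1 library in that group. The family median log2 differences were then 0.615 for Ugt, 0.437 for Gst and 0.323 for Sult, beside -0.01 for all genes. Among the 47 members, replicate 2 of MKO_PD1 lay within the range of the Cre_PD1 tumours for 23, beside 36.8% of all genes, and replicate 1 of MKO_PD1 was the highest library for 26, beside 9.93%. Cre_PD1 replicate 1 was the lowest library for 33 of the 47 members, beside 2751 of all 16506 genes. With the hepatocyte marker mean as a covariate, 0 members were higher and 1 (Ugt2b38) lower at an unadjusted p under 0.05, where 1.76% and 0.521% of all genes were. That mean separated the groups, so group and hepatocyte content can hardly be told apart in this fit.

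**Figure D1:**
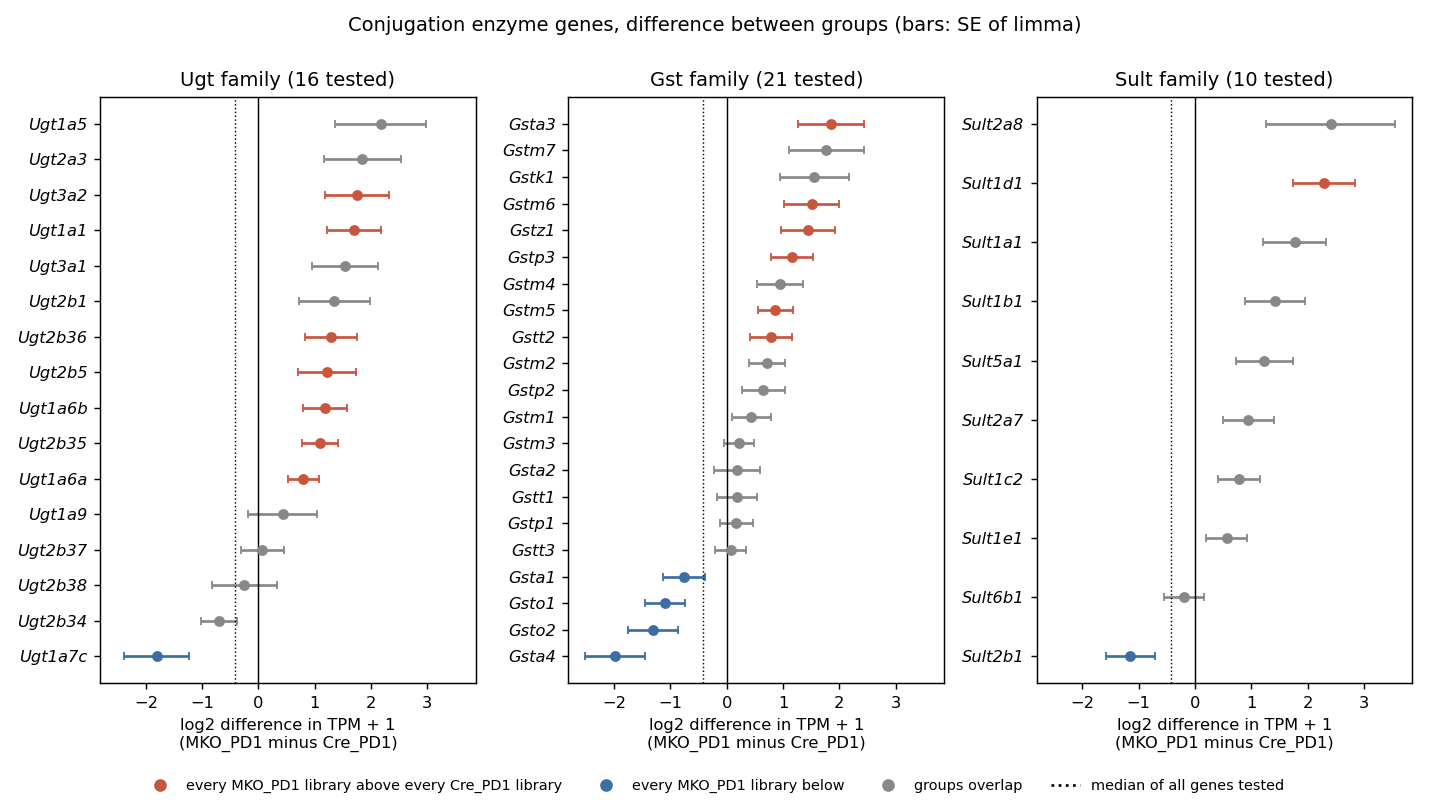
Log2 difference in TPM + 1 (MKO_PD1 minus Cre_PD1, horizontal axis) of the 47 tested members by family, with the standard error of limma as bars. Red and blue points mark genes whose groups were separate (14 higher and 6 lower), grey points overlapping groups, the dotted line the median of all genes tested (-0.42), and none of the points passed the adjusted threshold.

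The Ugt1a genes are 9 alternative first exons on chromosome 1 that splice to common last exons, so each has its own promoter but they share most of the transcript. GENCODE places Ugt1a7c at 88095062 to 88220002 and Ugt1a1 at 88211959 to 88218997 on the plus strand of GRCm38 (mm10). Genes of both signs lay within this locus. Ugt1a1, the enzyme that conjugates bilirubin, was at 4.82, 16.03 and 14.9 TPM in Cre_PD1 and 46.97, 23.1 and 45.96 TPM in MKO_PD1. Every MKO_PD1 tumour was above every Cre_PD1 tumour, with a log2 difference of 1.70 (SE 0.48) and an unadjusted p of 0.00782 (limma adjusted p = 0.168). Ugt1a7c, a member that begins further upstream, was at 33.4, 13.8 and 16.4 TPM in Cre_PD1 and 1.88, 11.6 and 4.57 TPM in MKO_PD1. Here every MKO_PD1 tumour was below every Cre_PD1 tumour, with a log2 difference of -1.81 (SE 0.57). The log2 ratio of Ugt1a7c to Ugt1a1, a pair chosen after the values were seen, was 2.79, -0.216 and 0.132 in Cre_PD1 and -4.64, -0.987 and -3.33 in MKO_PD1. Ugt1a7c was thus the higher of the pair in Cre_PD1 replicates 1 and 3 and the lower in the other libraries. This ratio does not depend on the scaling. Its groups were separate, which follows from the separation of both genes in opposite directions and adds no support.

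The other 4 tested members of the locus had positive differences. Ugt1a5 was at 1.07, 3.52 and 4.45 TPM in Cre_PD1 and 37.8, 3.27 and 27.00 TPM in MKO_PD1. Replicate 2 of MKO_PD1 was inside the Cre_PD1 range, and the remaining pair of MKO_PD1 tumours lay far above it. Ugt1a6b and Ugt1a6a, the genes of phenol-conjugating enzymes, had separate groups. Ugt1a6b was at 5.33, 8.74 and 12.2 TPM in Cre_PD1 and 24.9, 13.1 and 25.5 TPM in MKO_PD1. Ugt1a6a was at 2.08, 1.60 and 1.72 TPM in Cre_PD1 and 3.86, 3.18 and 4.67 TPM in MKO_PD1. Ugt1a9 overlapped, from 2.20 to 5.52 TPM in Cre_PD1 and from 1.64 to 14.5 TPM in MKO_PD1. Ugt1a2, Ugt1a8 and Ugt1a10 had 20, 2 and 19 reads over all 6 libraries and were not tested. Reads on the common exons cannot be given to 1 member: between 50.3 and 60.6% of the exon bases of each Ugt1a gene also belong to other annotated genes of the same strand, and between 9.1 and 41.5% to genes of the opposite strand. How the authors' counting treated such reads is not given in the sources used here, so the absolute level of each Ugt1a gene is uncertain. Ugt1a7c rests on 1432, 699 and 605 reads in Cre_PD1 and on 104, 491 and 204 in MKO_PD1.

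The 250 bases before the start sites of Ugt1a7c, Ugt1a5 and Ugt1a1 (RefSeq, GRCm38.p6) are shown because the read levels of these genes of 1 locus had differences of opposite sign. Promoter activity was not measured. They lie at chr1:88094751-88095000 on the plus strand, chr1:88165762-88166011 on the plus strand and chr1:88211709-88211958 on the plus strand, and are written 5′ to 3′. Capitals mark matches to 6 short motifs searched on both strands, named after the sequences.
Ugt1a7c: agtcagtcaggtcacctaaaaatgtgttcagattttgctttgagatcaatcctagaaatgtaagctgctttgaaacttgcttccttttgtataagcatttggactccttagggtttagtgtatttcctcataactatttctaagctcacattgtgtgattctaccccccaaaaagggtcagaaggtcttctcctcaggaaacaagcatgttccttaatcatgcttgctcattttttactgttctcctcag
Ugt1a5: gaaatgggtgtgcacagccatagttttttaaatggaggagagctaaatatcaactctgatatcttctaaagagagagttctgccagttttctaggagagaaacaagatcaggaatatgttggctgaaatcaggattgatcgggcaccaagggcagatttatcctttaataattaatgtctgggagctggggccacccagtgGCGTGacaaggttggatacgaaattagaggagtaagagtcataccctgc
Ugt1a1: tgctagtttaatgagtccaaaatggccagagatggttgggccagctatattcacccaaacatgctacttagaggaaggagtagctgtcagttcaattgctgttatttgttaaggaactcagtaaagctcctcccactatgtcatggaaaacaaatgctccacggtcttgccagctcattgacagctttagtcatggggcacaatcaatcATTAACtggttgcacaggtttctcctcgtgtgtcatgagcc

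The motifs were the antioxidant response element core TGACNNNGC, the xenobiotic response element core GCGTG, the HNF1 half-site GTTAAT, the HNF4 core by the letters CAAAGTCC, the AP-1 element TGANTCA and the TATA box TATAAA. Ugt1a1 holds an HNF1 half-site on the minus strand that begins 41 bases before the start site, Ugt1a5 holds a xenobiotic element core, and the window of Ugt1a7c holds none of the 6. HNF1 and HNF4 are transcription factors of hepatocytes. Over the 57 members with an entry in the promoter table (68 start sites), the HNF1 half-site was in 20.6% of windows, against 6.4% of all 32851 promoter windows of the same length. The 14 genes with this site included Sult2a3, Sult2a4, Sult2a5, Sult2a6 and Sult3a2, which had 0 reads, and Ugt1a10, which had 19. The AP-1 element was in 16.2% against 6.7% and the TATA box in 19.1% against 12.4%. The antioxidant core was in 4.4% against 10.2%, the xenobiotic core in 17.6% against 28.2% and the HNF4 core in 0 of 68 against 1.2%. A match describes letters in these windows and was not tested against the group differences.

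The Ugt2 genes, whose enzymes conjugate steroids and bile acids, lie in a cluster on chromosome 5 and again held 1 abundant member of opposite sign. Ugt2b5 was at 58.8, 196 and 217 TPM in Cre_PD1 and 438, 232 and 318 TPM in MKO_PD1, a log2 difference of 1.22 (SE 0.51). Ugt2b36 was at 50.1, 148 and 146 TPM in Cre_PD1 and 329, 175 and 283 TPM in MKO_PD1, and Ugt2b35 at 22.8, 39.6 and 46.2 TPM in Cre_PD1 and 77.4, 61.1 and 91.7 TPM in MKO_PD1. For all 3 the groups were separate, with Cre_PD1 replicate 1 lowest. Without that library the difference was 0.624 for Ugt2b5 and 0.781 for Ugt2b36, against 1.22 and 1.29 with it. Ugt2b1 and Ugt2a3 overlapped, with MKO_PD1 replicate 2 among the Cre_PD1 tumours. Ugt2b1 was at 17.4, 72.8 and 96.4 TPM in Cre_PD1 and 172, 77.00 and 163 TPM in MKO_PD1. Ugt2a3 was at 9.34, 46.6 and 56.6 TPM in Cre_PD1 and 169, 55.4 and 137 TPM in MKO_PD1. Their differences of 1.35 and 1.85 were 0.62 and 1.07 without Cre_PD1 replicate 1. Ugt2b34 (chromosome 5, 86889767 to 86906937, minus strand) was at 427, 305 and 226 TPM in Cre_PD1 and 153, 243 and 182 TPM in MKO_PD1. It was the only Ugt2 member at 10 TPM or more with a lower mean in MKO_PD1, a log2 difference of -0.70 (SE 0.32), and its groups overlapped (limma adjusted p = 0.187). Median-of-ratios scaling brought it to -0.23.

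Ugt2b34 was the most abundant Ugt gene in all 3 Cre_PD1 tumours and in MKO_PD1 replicate 2, and Ugt2b5, Ugt2b36 and Ugt3a2 were above it in MKO_PD1 replicates 1 and 3. Its share of all Ugt TPM was 64.9, 33.2 and 24.1% in Cre_PD1 and 8.99, 24.6 and 12.1% in MKO_PD1. The highest share was thus in Cre_PD1 replicate 1, the library with the fewest hepatocyte transcripts (1.32%). The minor members Ugt2b37 and Ugt2b38 stayed under 6 TPM in every library, with overlapping groups. Ugt2b5 and Ugt2b38 share 24.7 and 24.2% of their 100-base transcript windows with other genes, mostly each other, so reads between them are partly interchangeable. Ugt2a1 and Ugt2a2, genes of the olfactory tissue, had 0 reads in all libraries. They share 98.8 and 94.5% of their exon bases with genes of the same strand, mostly each other, so a count of 0 is uncertain for the pair. The Ugt3 genes on chromosome 15, whose enzymes use sugars other than glucuronic acid, both had positive differences. Ugt3a2 was at 19.1, 51.6 and 73.1 TPM in Cre_PD1 and 218, 73.7 and 182 TPM in MKO_PD1, with separate groups, and Ugt3a1 at 1.66, 6.08 and 9.53 TPM in Cre_PD1 and 24.1, 8.40 and 19.5 TPM in MKO_PD1. The Ugt3a1 difference of 1.54 was 0.97 without Cre_PD1 replicate 1. Ugt8a, which makes the galactolipids of myelin, had 52 reads over all libraries.

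The upstream sequences of Ugt2b34 and of Ugt2b36 are shown as genes of 1 cluster with opposite signs, at chr5:86906938-86907187 on the minus strand and chr5:87092556-87092805 on the minus strand. Neither window holds any of the 6 motifs.
Ugt2b34: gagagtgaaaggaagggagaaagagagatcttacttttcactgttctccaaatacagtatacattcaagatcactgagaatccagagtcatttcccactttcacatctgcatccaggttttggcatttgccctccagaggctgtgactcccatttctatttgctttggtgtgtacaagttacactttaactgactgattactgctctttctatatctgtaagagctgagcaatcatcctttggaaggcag
Ugt2b36: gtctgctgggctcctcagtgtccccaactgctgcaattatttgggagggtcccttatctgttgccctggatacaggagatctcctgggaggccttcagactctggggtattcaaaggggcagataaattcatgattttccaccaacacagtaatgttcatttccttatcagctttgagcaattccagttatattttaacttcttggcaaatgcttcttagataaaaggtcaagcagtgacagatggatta

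**Figure D2:**
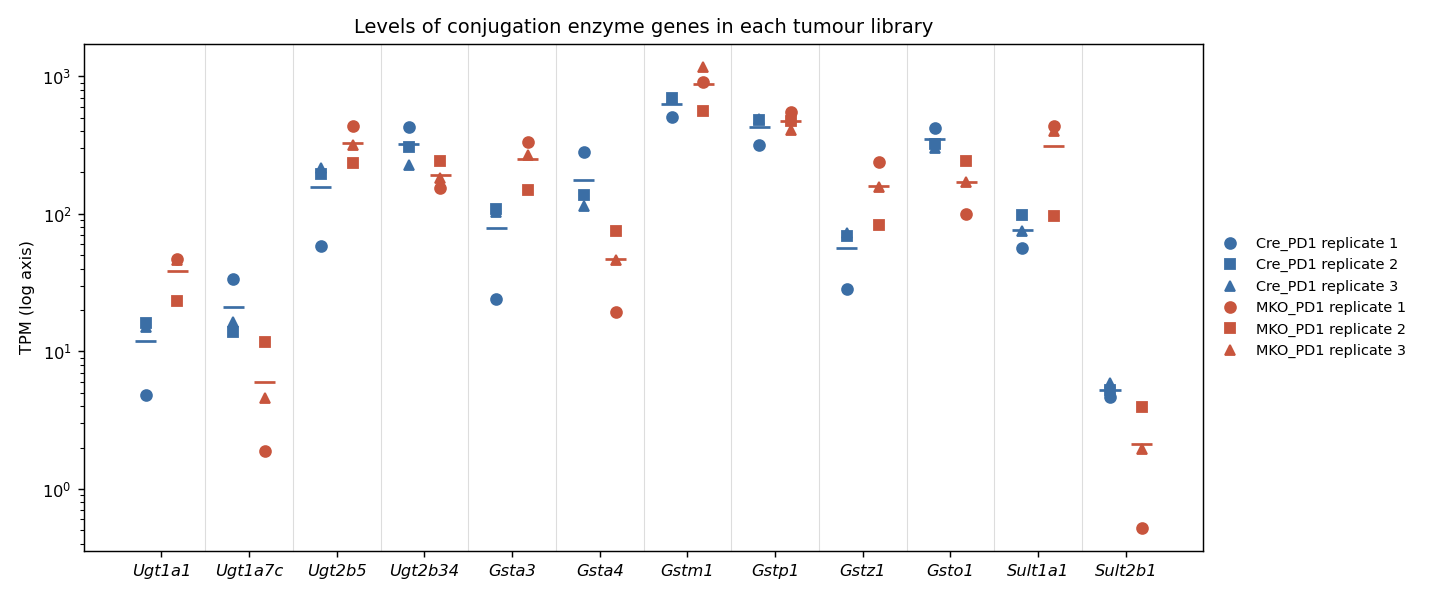
TPM (log axis) of 12 conjugation enzyme genes in each of the 6 libraries. Circles, squares and triangles are replicates 1, 2 and 3, blue Cre_PD1 and red MKO_PD1, and short lines are group means; Ugt1a7c, Gsta4, Gsto1 and Sult2b1 have every red point below every blue one, and Ugt1a1, Ugt2b5, Gsta3 and Gstz1 the reverse.

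Among the Gst genes, the alpha class held members of both signs. Gsta3 (chromosome 1, 21240589 to 21265661, plus strand), a major hepatic form that detoxifies aflatoxin epoxide in mice, was at 24.2, 108 and 103 TPM in Cre_PD1 and 333, 149 and 269 TPM in MKO_PD1, a log2 difference of 1.85 (SE 0.59) with separate groups. It was 1.16 without Cre_PD1 replicate 1. Gsta4 (chromosome 9, 78182774 to 78209349, plus strand), which removes the lipid peroxidation product hydroxynonenal, was at 279.8, 137 and 114 TPM in Cre_PD1 and 19.3, 74.5 and 46.2 TPM in MKO_PD1. Each MKO_PD1 tumour was below each Cre_PD1 tumour, and the log2 difference of -1.98 (SE 0.53) was the lowest of the tested members in this fit (unadjusted p = 0.00556, limma adjusted p = 0.168). With a pseudocount of 0.1 and with voom, Ugt1a7c was the lower (-2.05 against -2.01 and -1.51 against -1.47). The log2 ratio of Gsta4 to Gsta3, also a pair chosen after the values were seen, was 3.53, 0.343 and 0.139 in Cre_PD1 and -4.11, -0.998 and -2.55 in MKO_PD1. Gsta4 exceeded Gsta3 in all 3 Cre_PD1 tumours and was below it in all 3 MKO_PD1 tumours. Neither gene shares a 100-base transcript window with another gene. Gsta1 was low, at 9.98, 6.71 and 5.85 TPM in Cre_PD1 and 2.15, 5.76 and 4.65 TPM in MKO_PD1, with separate groups, and Gsta2 overlapped. Gsta1 shares 80.6% of its windows with other genes, among them Gsta2, so its level is uncertain.

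The omega class, whose enzymes reduce dehydroascorbate and mixed disulfides rather than conjugate, was lower in MKO_PD1 for both members. Gsto1 (chromosome 19, 47854970 to 47864790, plus strand) was at 424, 319.6 and 302 TPM in Cre_PD1 and 100.4, 241 and 171 TPM in MKO_PD1, a log2 difference of -1.10 (SE 0.36). Its neighbour Gsto2 was at 7.29, 5.21 and 3.74 TPM in Cre_PD1 and 0.325, 2.85 and 2.13 TPM in MKO_PD1, a log2 difference of -1.31 (SE 0.45), and -0.846 without MKO_PD1 replicate 1. In both genes Cre_PD1 replicate 1 was highest and MKO_PD1 replicate 1 lowest, and the groups were separate. Both stayed negative after median-of-ratios scaling, at -0.62 and -1.05. Gsto1 was the third most abundant conjugation enzyme gene in Cre_PD1 and the ninth in MKO_PD1 by group mean.

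The leading Gst genes by level had overlapping groups. Gstm1, the main mu class gene of liver, was at 506, 692 and 680.1 TPM in Cre_PD1 and 908, 564 and 1168 TPM in MKO_PD1, and Gstp1, of the pi class, at 319, 484 and 486 TPM in Cre_PD1 and 549.7, 477 and 405 TPM in MKO_PD1. These were the highest conjugation enzyme genes by mean in both groups, with log2 differences of 0.44 (SE 0.35) and 0.17 (SE 0.29). The sign of Gstm1 turned without MKO_PD1 replicates 1 and 3 (-0.137) and that of Gstp1 without Cre_PD1 replicate 1 (-0.0352). Gstp1 shares 25.1% and its near copy Gstp2 46.9% of transcript windows with other genes, while Gstp3 shares none. Gstp3 was at 12.8, 25.7 and 22.2 TPM in Cre_PD1 and 70.2, 35.05 and 36.3 TPM in MKO_PD1, with separate groups. All 7 mu class genes had positive differences, from 0.22 (Gstm3) to 1.77 (Gstm7). Gstm6 and Gstm5 had separate groups. Gstm6 was at 7.62, 21.6 and 21.5 TPM in Cre_PD1 and 72.2, 27.2 and 47.8 TPM in MKO_PD1. Gstm5 was at 6.54, 11.1 and 6.87 TPM in Cre_PD1 and 18.5, 14.7 and 12.9 TPM in MKO_PD1. Gstm7 was at 3.38, 16.6 and 18.4 TPM in Cre_PD1 and 68.2, 17.4 and 45.7 TPM in MKO_PD1, with MKO_PD1 replicate 2 inside the Cre_PD1 range. Gstm3 was at 67.4, 103 and 85.4 TPM in Cre_PD1 and 83.4, 106 and 108 TPM in MKO_PD1. Gstm2 was at 22.96, 45.03 and 26.4 TPM in Cre_PD1 and 61.4, 42.7 and 47.9 TPM in MKO_PD1, and Gstm4 at 11.4, 23.9 and 28.8 TPM in Cre_PD1 and 56.6, 27.3 and 38.7 TPM in MKO_PD1. In Gstm2 and Gstm4, MKO_PD1 replicate 2 was again inside the Cre_PD1 range. Without Cre_PD1 replicate 1 the difference was 1.08 for Gstm7, 0.56 for Gstm4 and 0.0635 for Gstm3, against 1.77, 0.94 and 0.22 with it. For Gstm1 (0.44), leaving out MKO_PD1 replicate 2 gave 0.731 and leaving out replicate 3 of that group gave 0.206.

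The zeta, kappa and theta classes had positive differences for all 5 tested genes. Gstz1, the maleylacetoacetate isomerase of tyrosine breakdown, was at 28.6, 68.8 and 72.99 TPM in Cre_PD1 and 238, 82.4 and 157 TPM in MKO_PD1, a log2 difference of 1.45 (SE 0.48) with separate groups. Gstk1, a mitochondrial and peroxisomal form, was at 6.56, 31.6 and 28.3 TPM in Cre_PD1 and 93.2, 30.4 and 62.2 TPM in MKO_PD1, where MKO_PD1 replicate 2 was inside the Cre_PD1 range. Its difference of 1.56 was 0.888 without Cre_PD1 replicate 1. Gstt1, of the theta class that acts on small halogenated compounds, overlapped at 82.3, 99.02 and 140.2 TPM in Cre_PD1 and 180.1, 78.6 and 117 TPM in MKO_PD1, and its difference of 0.18 (SE 0.36) turned to -0.124 without MKO_PD1 replicate 1. Gstt2 was separate at a low level, from 3.19 to 6.93 TPM in Cre_PD1 and from 8.31 to 13.8 TPM in MKO_PD1. Gstt3 did not spread beyond 3.25 to 4.13 TPM, the narrowest range of the tested members on the log2(TPM + 1) scale (0.27), and Gstt4 had 7 reads in all.

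The upstream sequences of Gsta3 and Gsto1 are shown for both directions in this family, at chr1:21240335-21240584 on the plus strand and chr19:47854723-47854972 on the plus strand. The table of promoters used here holds no entry for Gsta4. Capitals mark an HNF1 half-site and an antioxidant response element core in Gsta3, which begin 149 and 121 bases before the start site. Gsto1 holds none of the 6 motifs.
Gsta3: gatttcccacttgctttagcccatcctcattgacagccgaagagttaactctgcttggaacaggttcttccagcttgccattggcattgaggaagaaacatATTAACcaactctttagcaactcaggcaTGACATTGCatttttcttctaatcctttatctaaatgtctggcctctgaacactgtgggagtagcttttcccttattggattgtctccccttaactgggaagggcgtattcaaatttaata
Gsto1: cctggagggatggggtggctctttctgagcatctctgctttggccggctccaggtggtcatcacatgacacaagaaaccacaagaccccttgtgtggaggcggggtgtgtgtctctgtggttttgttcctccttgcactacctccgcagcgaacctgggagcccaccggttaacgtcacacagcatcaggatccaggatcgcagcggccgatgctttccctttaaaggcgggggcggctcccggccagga

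The summed Gst level overlapped between the groups, while the shares of some genes in it were separate. Summed Gst TPM was 1834, 2219 and 2169 in Cre_PD1 and 2883, 2003 and 2766 in MKO_PD1. Gsta4 and Gsto1 together took 38.4, 20.6 and 19.2% in Cre_PD1 and 4.15, 15.8 and 7.86% in MKO_PD1, with separate groups. Gsta3 took 1.32, 4.88 and 4.75% in Cre_PD1 and 11.6, 7.43 and 9.74% in MKO_PD1, and Gstz1 1.56, 3.10 and 3.37% in Cre_PD1 and 8.25, 4.11 and 5.68% in MKO_PD1, both separate in the other direction. Gstp1 kept 17.4 to 22.4% of the pool in Cre_PD1 and 14.6 to 23.8% in MKO_PD1. The leading gene Gstm1 took 27.6 to 31.4% in Cre_PD1 and 28.1 to 42.2% in MKO_PD1. The shares of Gstm1, Gstp1, Gstm3 and Gstt1 all overlapped. Gsta4, Gsto1, Gsta3 and Gstz1 were picked here after their values were seen. Their separate shares therefore add no support beyond the levels of these genes. Summed Ugt TPM was 658, 919 and 935 in Cre_PD1 and 1707, 986 and 1505 in MKO_PD1 and summed Sult TPM 71.7, 196 and 228 in Cre_PD1 and 807, 258 and 643 in MKO_PD1, both with separate groups.

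**Figure D3:**
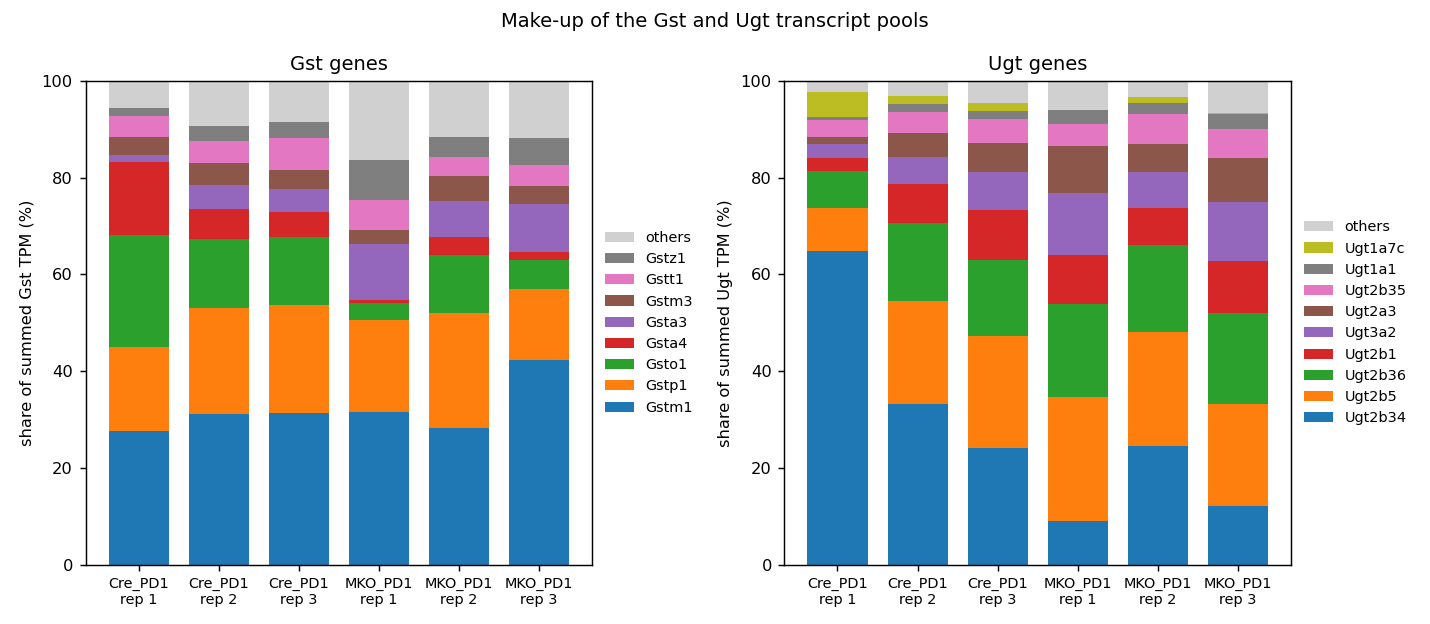
Share (%) of summed Gst TPM (left) and summed Ugt TPM (right) taken by single genes in each library, as bars stacked to 100%. Gsto1 with Gsta4 takes from 19.2 to 38.4% of the Gst pool in Cre_PD1 and from 4.15 to 15.8% in MKO_PD1, and Ugt2b34 takes the largest Ugt share (64.9%) in Cre_PD1 replicate 1.

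Of the 21 Sult genes, 10 were tested and 8 had 0 reads in every library. Sult1a1 (chromosome 7, 126672865 to 126676432, minus strand), which sulfates phenols, was at 56.5, 97.8 and 75.6 TPM in Cre_PD1 and 438, 97.01 and 398 TPM in MKO_PD1. MKO_PD1 replicates 1 and 3 were several times above all other libraries, and replicate 2 lay between the Cre_PD1 tumours, so the groups overlapped despite a log2 difference of 1.77 (SE 0.56). Sult1d1, which acts on catecholamines and related amines, was at 4.04, 16.6 and 13.5 TPM in Cre_PD1 and 66.4, 28.04 and 75.9 TPM in MKO_PD1. It had the smallest unadjusted p of all members (0.00329, limma adjusted p = 0.168) and a log2 difference of 2.29 (SE 0.55) with separate groups. Sult2a8, a bile acid sulfotransferase of mouse liver, was at 2.82, 65.5 and 124 TPM in Cre_PD1 and 272, 119 and 143 TPM in MKO_PD1. The value of Cre_PD1 replicate 1 was far below the others, and those of the remaining libraries overlapped. The difference of 2.41 (SE 1.15) was 0.88 without it.

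Sult2b1 (chromosome 7, 45729983 to 45784669, minus strand), which sulfates cholesterol and is expressed in epithelia, had a negative difference, as had Sult6b1 (-0.20) among the Sult genes tested. Sult2b1 was at 4.63, 5.23 and 5.92 TPM in Cre_PD1 and 0.521, 3.93 and 1.94 TPM in MKO_PD1, a log2 difference of -1.15 (SE 0.44) with separate groups, and -0.713 without MKO_PD1 replicate 1. Sult1b1, a thyroid hormone sulfotransferase gene, was at 0.849, 4.19 and 3.57 TPM in Cre_PD1 and 12.2, 3.995 and 11.8 TPM in MKO_PD1. Sult1c2, Sult1e1, Sult2a7, Sult5a1 and Sult6b1 stayed under 7 TPM and overlapped. The oestrogen sulfotransferase gene Sult1e1 did not exceed 2.21 TPM. Sult2a1 to Sult2a6, whose products sulfate steroids and bile acids, had 0 reads in each of 6 libraries, and so did Sult1c1 and Sult3a2. Up to 3 reads over all libraries are compatible with a count of 0. Sult2a1, Sult2a2, Sult2a4 and Sult2a5 share from 5.80 to 34.6% of their transcript windows with each other or with pseudogenes, but Sult2a3 and Sult2a6 share none. Sult3a1 had 28 reads in all, and the brain form Sult4a1 had 26.

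The window before the start site of Sult1a1 (chr7:126676419-126676668 on the minus strand) is shown for the Sult gene of highest group mean, which Sult2a8 exceeded in Cre_PD1 replicate 3 and MKO_PD1 replicate 2, with an HNF1 half-site in capitals that begins 232 bases before the start site.
Sult1a1: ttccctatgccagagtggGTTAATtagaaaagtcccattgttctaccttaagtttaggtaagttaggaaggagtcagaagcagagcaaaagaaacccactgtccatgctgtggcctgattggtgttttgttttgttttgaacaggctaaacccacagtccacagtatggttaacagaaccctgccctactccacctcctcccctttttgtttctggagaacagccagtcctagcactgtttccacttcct

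Members differed in how closely their level followed the hepatocyte markers from library to library. The mean log2(TPM + 1) of the 19 hepatocyte markers spanned 3.47 units over the 6 libraries. Set against that mean, 11 of the 47 tested members spanned less than 1 log2 unit, namely Ugt1a1, Ugt2b36, Ugt3a1, Ugt3a2, Gsta3, Gstm6, Gstm7, Gstk1, Gstz1, Sult1b1 and Sult1d1. For Ugt1a1 the log2 level minus the marker mean was -5.11, -5.07 and -5.14 in Cre_PD1 and -5.54, -5.02 and -5.22 in MKO_PD1. For Ugt3a2 it was -3.33, -3.44 and -2.92 in Cre_PD1 and -3.35, -3.38 and -3.26 in MKO_PD1 and the span over the 6 tumours was 0.52 log2 units for both genes. A gene of constant level would span 3.47 by construction. Another 16 members spanned more than 3 units, among them Ugt1a7c, Ugt2b34, Gsta4, Gsto1, Gsto2 and Sult2b1. For Gsta4 the value was 0.48, -2.04 and -2.29 in Cre_PD1 and -6.78, -3.37 and -5.22 in MKO_PD1, and for Gsto1 1.08, -0.83 and -0.89 in Cre_PD1 and -4.46, -1.69 and -3.35 in MKO_PD1. Sult2a8 also spanned more than 3 units because of Cre_PD1 replicate 1 (-5.72, against -3.61 to -2.17 elsewhere). The limits of 1 and 3 units were set after the values were seen, these are descriptions over 6 points, and the marker mean is itself higher in every MKO_PD1 library. The shares of all genes tested within these limits were not worked out. Following the markers, or not, can therefore not be called particular to the members.

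**Figure D4:**
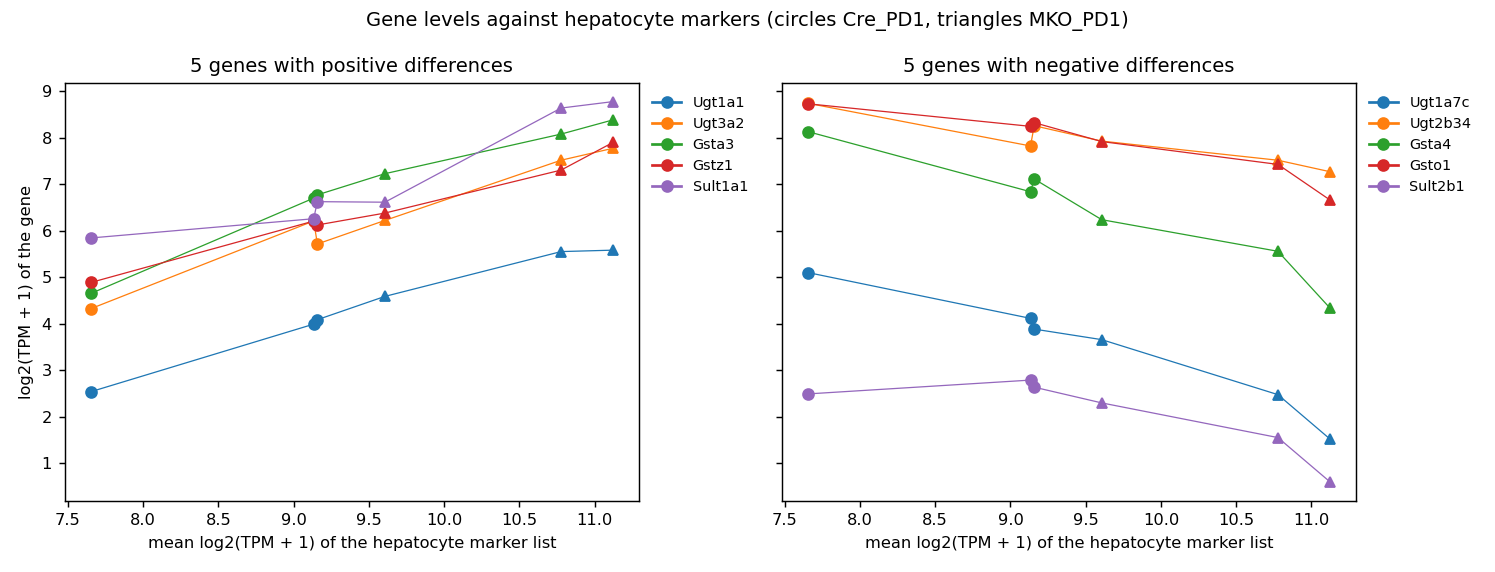
Log2(TPM + 1) of 10 genes (vertical axis) against the mean log2(TPM + 1) of the hepatocyte marker list (horizontal axis) in the 6 libraries, circles Cre_PD1 and triangles MKO_PD1, with a line joining the libraries of each gene. The 5 genes on the left are highest in the libraries with most hepatocyte transcripts, and the 5 on the right are lowest there.

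The genes that supply, regulate and clear conjugates likewise held both signs, and none passed the adjusted threshold in limma (smallest adjusted p = 0.168). Of 18 tested genes that make or carry the sulfate, glucuronate and glutathione donors, 4 were higher and 4 lower at an unadjusted p under 0.05, with a median log2 difference of -0.23. Over all genes tested these shares were 8.47% higher and 19.5% lower, with a median of -0.42. The enzymes that make the sulfate donor went opposite ways, with Papss1 at 137 ± 24.3 and 48.5 ± 24.4 TPM (mean ± SD, n = 3 per group, Cre_PD1 first) and Papss2 at 29.4 ± 5.78 and 66.2 ± 20.9 TPM. Ugdh, which makes UDP-glucuronic acid for all Ugt enzymes, was at 176 ± 45.6 and 83.6 ± 31.4 TPM, the reverse of the direction of most Ugt genes. Cth, which makes cysteine, the limiting building block of glutathione, was at 26.1 ± 15.8 and 84.7 ± 33.3 TPM. In each of these 4 genes the groups were separate. The 4 were named for the smallest p of the list, so their separation adds no support. Among the 18 tested genes of the list, every MKO_PD1 tumour lay above every Cre_PD1 tumour for 3 and below for 7. The shares of all genes tested were 10.1% and 28.9%.

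Among 19 tested genes of other conjugating enzymes, 8 were higher and 5 lower at that level, beside 8.47% and 19.5% of all genes, with a median of 0.80 beside -0.42. The membrane-bound glutathione transferase genes Mgst3 and Mgst2 were at 204 ± 22.99 and 69.1 ± 36.1 TPM and 78.3 ± 16.7 and 24.3 ± 17.6 TPM. The more abundant Mgst1, named after its values were seen, went the other way, at 555 ± 289 and 1487 ± 613 TPM, a log2 difference of 1.52 (SE 0.54). Baat, which couples bile acids to taurine and glycine, was at 51.2 ± 20.5 and 161 ± 71.3 TPM, and the histamine methyltransferase gene Hnmt at 6.48 ± 3.37 and 20.6 ± 6.40 TPM. For export and deconjugation, 6 of 15 tested genes were higher and 4 lower, beside the same 8.47% and 19.5% of all genes, with a median of 0.10. Abcc2, the exporter of glucuronides and glutathione conjugates into bile, was at 28.8 ± 13.8 and 85.6 ± 20.5 TPM. The uptake carrier genes Slco1b2 and Slco1a4 were at 63.9 ± 38.6 and 230.3 ± 88.3 TPM and 1.33 ± 0.945 and 7.76 ± 4.64 TPM, while the drug efflux pump gene Abcb1a was at 33.4 ± 3.26 and 10.2 ± 6.24 TPM. The groups were separate for all 9 genes named here. These genes were picked by smallest p or, for Mgst1, after the values were seen, so their separation adds no support. Of the 19 genes of other conjugating enzymes, the groups did not overlap for 11 with higher and 5 with lower levels in MKO_PD1. For the 15 export and deconjugation genes these counts were 6 and 3. The shares of all genes tested were 10.1% and 28.9%.

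Of 16 tested regulators of xenobiotic metabolism, 5 were higher and 1 lower at an unadjusted p under 0.05, beside 8.47% and 19.5% of all genes. Their median was -0.12, beside -0.42 for all genes. The nuclear receptor genes Nr1i3 (CAR), Nr1i2 (PXR) and Ppara, known inducers of conjugation enzymes in hepatocytes, were at 3.16 ± 1.13 and 10.5 ± 2.80 TPM, 11.7 ± 4.46 and 33.7 ± 9.19 TPM and 8.24 ± 4.92 and 26.3 ± 6.41 TPM. Maff, a small Maf partner of the antioxidant factor Nrf2, was at 122 ± 27.1 and 47.6 ± 23.4 TPM. Of 17 Nrf2 targets outside the families, 2 were higher and 3 lower, near the shares of all genes (8.47% and 19.5%), and their median was -0.08. Aldh3a1, Me1 and Tkt were lower, at 49.3 ± 8.25 and 12.5 ± 10.5 TPM, 198 ± 61.3 and 86.4 ± 24.8 TPM and 159 ± 21.3 and 86.4 ± 20.1 TPM, and Osgin1 was at 83.8 ± 25.1 and 151 ± 56.1 TPM. The groups were separate for 4 of the 17 genes higher (Osgin1, Ephx1, Hmox1 and Nqo1) and 3 lower (Aldh3a1, Me1 and Tkt). Over all genes these shares were 10.1% and 28.9%. Hmox1 and Nqo1, named after their values were seen, were at 264 ± 47.6 and 391 ± 49.4 TPM and 4.45 ± 1.08 and 7.80 ± 2.91 TPM. Of the 17 genes, 8 were above 0, beside 27.1% of all genes, and 12 after median-of-ratios scaling, beside 48.6%. The part of hepatocyte, bile duct and tumour cell content in these differences was not tested.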

How the data were processed

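The table the authors deposited is named TPM, but its columns do not sum to a fixed total (70363 to 105281): the deposited values are a length-normalised read signal with 1 constant for all columns. Per the submitters' processing notes, reads were aligned with STAR 2.7.10a to mm10 and counted with featureCounts 2.0.3 of Subread; further steps are not given in the sources used here. Multiplying by GENCODE M21 exon lengths and dividing by the constant (8.03) gave whole reads, within 0.001, for 29374 of 29860 genes above 0 (98.4%) and for all 65 members. Each column was rescaled to 1000000 and analysed as log2(TPM + 1). The 16506 genes that reached 1 TPM in 3 or more libraries were tested with limma 3.58.1 in R 4.3.3 (trend, no covariate), with Benjamini-Hochberg adjustment over all of them and a threshold of 0.05. The procedure was tested on simulated counts, where false calls exceeded the nominal rate and came from genes of few reads, and most changes of the smaller size were missed. Groups of 3 allow no exact p under 0.1, so none is given.

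Members and lists were chosen with earlier results of these data known. Values per library are given for members with a mean of at least 10 TPM and for the 5 higher and 5 lower of smallest p. Up to 4 genes of smallest p are named from each other list. Members outside this rule (such as Ugt1a6a, Ugt1a9, Gsta1, Gstt2 and Sult1b1) were named after their values were seen, as were the gene pairs, plotted genes and printed promoters chosen. Promoters come from RefSeq (GRCm38.p6). Symbols ending in -ps and a number counted as ending in -ps. Strand and handling of shared reads in the counting are not given in the sources used here. Sts was not in the table. Alternatives changed the pseudocount (0.1), filter, scaling, model (voom), block, covariate and each library. One, without MKO_PD1 replicates 1 and 3, was added after seeing the data.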

Additional observations from a re-analysis of the deposited data

How the results depend on the processing

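The count of members past the threshold was 0 under every alternative except leaving out MKO_PD1 replicate 2, so it ranged from 0 to 26 over the 6 fits that each left out 1 library. The family median log2 differences over those fits ranged from 0.796 to 1.49 for Ugt, 0.496 to 0.746 for Gst and 0.771 to 1.7 for Sult. With the hepatocyte marker mean as a covariate the medians were -0.237, -0.182 and -0.286. With voom on recovered reads, whose library sizes are median-of-ratios ones, they were 1.18 for Gst and 2.27 for Sult, with median-of-ratios scaling of TPM 1.04 for Gst, with a pseudocount of 0.1 1.78 for Sult, and without MKO_PD1 replicates 1 and 3 0.615 for Ugt, 0.437 for Gst and 0.323 for Sult. Of 416 alternative values of the 32 members described per library by rule, 372 kept sign and side of the threshold, 21 passed it (all without MKO_PD1 replicate 2) and 23 changed sign, 19 of them with the covariate. Those 19 log2 differences were Gsta3 -0.188, Ugt1a7c 0.0392, Ugt1a5 -0.511, Gstm7 -0.67, Gstm6 -0.143, Gstm1 -0.335, Gstm4 -0.341, Ugt2b34 0.115, Ugt2b1 -0.8, Ugt2b36 -0.243, Ugt2b5 -0.446, Ugt2a3 -0.629, Gstk1 -0.651, Sult2a8 -1.21, Gstt1 -0.765, Gstz1 -0.21, Ugt3a1 -0.403, Ugt3a2 -0.232, Gstp1 -0.282. The other 4 were Gstm1 (-0.137) and Gstt1 (-0.407) without MKO_PD1 replicates 1 and 3, Gstt1 (-0.124) without MKO_PD1 replicate 1 and Gstp1 (-0.0352) without Cre_PD1 replicate 1. Over the fits without 1 library, Gstt1 ranged up to 0.469 and Gstp1 up to 0.278. The cause was not tested. With the replicate number as a block, the medians stayed at 1.21, 0.65 and 1.09 and 0 members passed. The labels state no pairing by number. Deviations of same-numbered libraries from their group means correlated at -0.42, -0.265 and 0.049, and those of differently numbered libraries at -0.234 to 0.388. Deviations sum to 0 within each group of 3, so these values cannot decide whether libraries were paired. Genes of few reads are limited by depth, such as Gsto2 with 10 reads in MKO_PD1 replicate 1.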
